A study of Drosophila melanogaster with 24 samples.

Results

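The respiratory chain genes were taken as every gene of the deposited table whose FlyBase symbol starts with ND-, UQCR-, COX4 to COX8 or ATPsyn, is SdhA, SdhB, SdhC or SdhD, or starts with mt:ND, mt:Co, mt:Cyt-b or mt:ATPase. Of the 17606 genes in the table, 97 symbols matched, 84 from the nuclear genome and 13 from the mitochondrial genome. A gene was tested when it had at least 10 normalized counts in at least 3 of the 23 libraries used, and 86 of the 97 passed, among 12493 tested genes in all. The 86 were all 13 mitochondrial genes, 61 nuclear subunit genes and 12 nuclear genes named as a copy of a subunit, with the ending L, L1 or L2. Of these copies, COX6AL and ATPsynepsilonL are named after subunits that are not in the set. Of the 61 nuclear subunit genes, 32 belong to complex I, 4 to complex II, 6 to complex III, 8 to complex IV and 11 to complex V. The other 11 symbols stayed below the minimum: ND-20L, ND-24L, ND-49L, ND-B14.5AL, ND-B8, ND-MNLL, UQCR-14L, UQCR-6.4L, COX6AL2, COX6CL and ATPsynGL.

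The libraries were made from total, ribosomal RNA-depleted RNA of adult Drosophila melanogaster heads, pooled from 10 to 25 flies per library. Old flies, aged 21 to 25 days after eclosion, were compared with young flies, aged 0 to 2 days. H3.3BK36R flies, whose X-linked H3.3B gene encodes arginine in place of lysine at residue 36, were compared with H3.3Adelta flies, whose H3.3B is wild type. Both genotypes lacked functional H3.3A, because both carried the H3.3A null allele over a deficiency, and both carried y and w on the X chromosome. H3.3BK36R females were homozygous and males hemizygous for the allele. Females and males were sequenced separately, with 3 libraries for each combination of age, sex and genotype. Young male H3.3BK36R replicate 2 was left out, which leaves 23 libraries and 2 in that group. The genotypes came from different crosses with different mothers, so genotype and the maternally inherited mitochondrial genome cannot be told apart.

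The respiratory chain sits in the inner mitochondrial membrane. Complex I (NADH dehydrogenase), complex II (succinate dehydrogenase), complex III (the cytochrome bc1 complex) and complex IV (cytochrome c oxidase) pass electrons to oxygen, and complex V (ATP synthase) uses the proton gradient built by complexes I, III and IV to make ATP. Complex II is encoded wholly in the nucleus, whereas the other complexes combine nuclear subunits, imported from the cytosol, with subunits made inside the organelle from the mitochondrial genome. Neurons, photoreceptors and muscle, all present in the head, depend heavily on this pathway.

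The 23 libraries held 21263006 to 42763126 reads on genes, with a median of 27763237. The labelled sexes and tissue were checked against markers. The male-specific RNA lncRNA:roX1 had 189 to 3195 normalized counts in females and 39681 to 65843 in males, and the 10 photoreceptor markers summed to 786133 to 1445720 in every library. Yp1, a yolk protein gene of the female fat body, had 667330 to 1912860 normalized counts in females and 990 to 253930 in males, with 3 male libraries above 10000. In 6 libraries, over 50% of the autosomal genes that were silent in most libraries had reads, at 50.7% to 83.9% of those genes. The library left out had 7113 normalized counts over 8 testis markers and 57958 over 10 accessory gland markers.

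Mitochondrial transcripts were the most abundant of the set. Per kilobase of exon, the median level over the 23 libraries was 87040 normalized counts for mt:CoIII, 68633 for mt:CoI, 45214 for mt:ND1 and 39500 for mt:Cyt-b. The mitochondrial genes spread widely, because 5 of them (mt:ND2, mt:ND3, mt:ND4L, mt:ND6 and mt:ATPase8) lay between 246 and 1150 normalized counts per kilobase while the other 8 lay between 3381 and 87040. The 61 nuclear subunit genes lay between 756 and 27305 per kilobase, led by ATPsynC, the proton-carrying ring subunit of ATP synthase. The most abundant nuclear genes of the other complexes, chosen by normalized count, were ND-75 of complex I, SdhA of complex II, UQCR-C1 of complex III and COX6B of complex IV. The 12 like-named copies were scarce, at 3.19 to 333 per kilobase. Genes mt:ATPase8 and mt:ATPase6 overlap by 7 bases on one strand, and 27 of the 61 nuclear subunit genes overlap a gene on the opposite strand. The counts kept strands apart. Of 135 genes whose exons lie wholly within exons of opposite-strand genes alone, 0 had no reads in all 23 libraries, against 326 of 329 genes covered on the same strand alone. Counts are therefore uncertain for the members that overlap a gene on the same strand. These are 5 of the 13 mitochondrial genes and 3 of the 61 nuclear subunit genes. Apart from mt:ATPase8 and mt:ATPase6 they are not named here, so the limit may reach other genes described below, mt:CoIII included.

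Age was the comparison in which the set moved most. All 61 nuclear subunit genes were lower in old heads than in young heads, with a median log2 fold change of -0.73 and a range of -1.02 to -0.16, and 10 of the 13 mitochondrial genes were also lower, with a median over the 13 of -0.47. Among all tested genes 53.8% were called for age, 28.4% higher and 25.4% lower, and the median log2 fold change was 0.04. Calls used limma at a Benjamini-Hochberg adjusted p under 0.05, on log2 of the normalized count plus 1, with genotype and sex in the model. The labels do not say that replicates came from separate cultures, so the p-values measure the spread between these libraries. In heads, as in other bulk samples, fewer cells of a type and less RNA per cell cannot be told apart.

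Summed over the 61 nuclear subunit genes, old heads had 191529 to 298117 normalized counts (median 219152, n = 12) and young heads had 324137 to 494186 (median 409016, n = 11), with no overlap. Summed over the 13 mitochondrial genes, old heads had 214010 to 319149 (median 260275) and young heads had 310477 to 447206 (median 380637). The mitochondrial sums overlapped only through old female H3.3BK36R replicate 2 and young male H3.3BK36R replicate 1. The ratio of the mitochondrial to the nuclear sum was 0.93 to 1.39 in old heads (median 1.14) and 0.80 to 1.11 in young heads (median 0.96), so the nuclear sum was the one that differed more, although the ratios overlapped. As a share of all normalized counts, the nuclear genes held 0.781% to 1.02% in old heads and 1.14% to 2.07% in young heads.

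**Figure D1:**
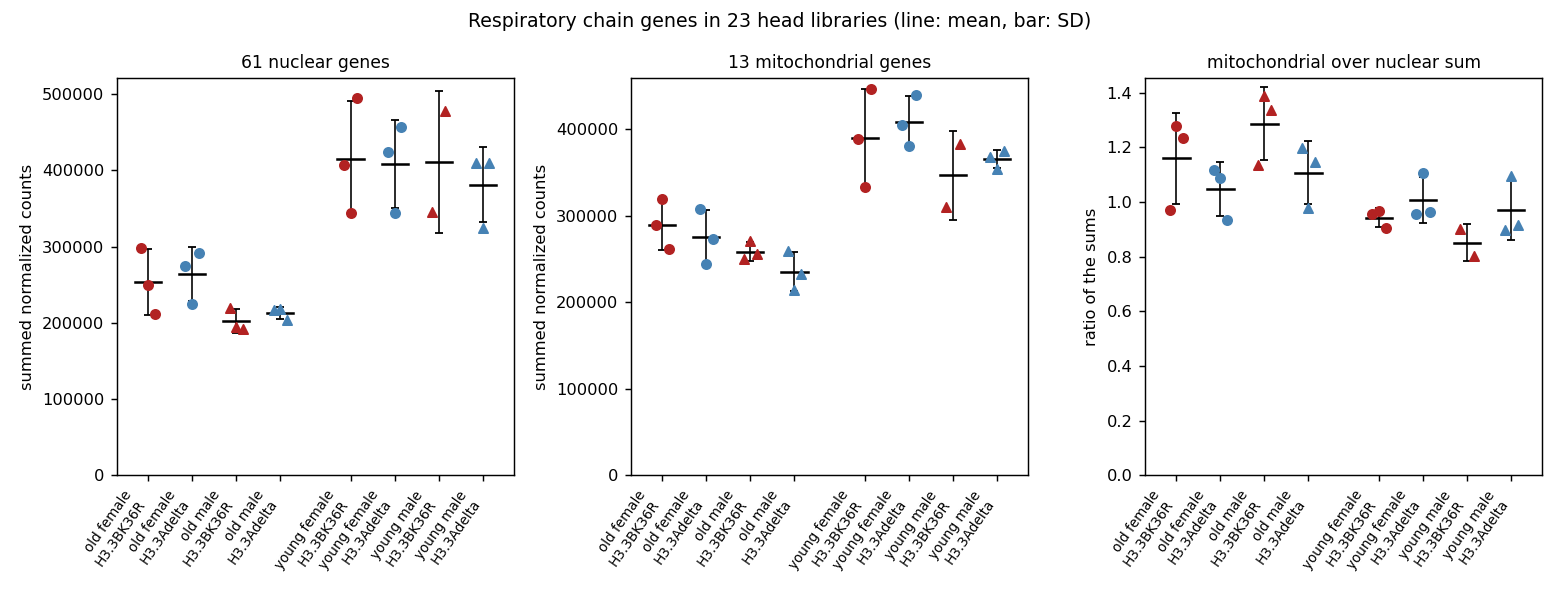
Summed normalized counts of the 61 nuclear subunit genes (left) and of the 13 mitochondrial genes (middle), and the ratio of the mitochondrial to the nuclear sum (right), with 1 point per library (red for H3.3BK36R and blue for H3.3Adelta, circles for females and triangles for males), a line for the group mean and a bar for its SD. Every old library lay at or below 298117 for the nuclear sum and every young library at or above 324137, whereas the ratios of old and young libraries overlap.

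The fall was seen in each complex. The median log2 fold change of the nuclear subunit genes was -0.63 for complex I, -0.56 for complex II, -0.84 for complex III, -0.82 for complex IV and -0.86 for complex V. In 29 of the 61 genes (47.5%), every old library lay below every young library, against 3.53% of all tested genes. None had every old library above every young library, against 2.64% of all tested genes. These were 11 of 32 genes in complex I, 2 of 4 in complex II, 3 of 6 in complex III, 5 of 8 in complex IV and 8 of 11 in complex V.

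The largest falls among nuclear subunit genes were in ATP synthase. ATPsyngamma (FBgn0020235, dm6 chromosome 3R, 29747704 to 29749163, minus strand), which encodes the central stalk subunit, had 2456 to 4379 normalized counts in old heads (median 2726) and 4594 to 7762 in young heads (median 6310). The ranges did not overlap, and the log2 fold change was -1.02 (SE 0.10, adjusted p = 1.51e-08). ATPsynC (FBgn0039830, dm6 chromosome 3R, 31216145 to 31219630, minus strand) had 27386 to 51005 in old heads (median 33979) and 54036 to 96606 in young heads (median 73756). It was lower in old heads by a log2 fold change of -1.002 (SE 0.10, adjusted p = 1.32e-08), again with no overlap. ATPsynbeta, the catalytic subunit, had 7849 to 13793 in old heads (median 9608) and 14751 to 23805 in young heads (median 17959), a log2 fold change of -0.90.

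Succinate dehydrogenase has no mitochondrially encoded subunit, and all 4 of its genes fell. SdhA, the flavoprotein that oxidizes succinate, had 5845 to 9447 normalized counts in old heads (median 7691) and 9580 to 12405 in young heads (median 10860), a log2 fold change of -0.50. SdhD, a membrane anchor, had 1379 to 1944 in old heads (median 1575) and 2214 to 3346 in young heads (median 2711), a log2 fold change of -0.80. Neither of these genes overlapped between ages. The iron-sulfur subunit SdhB had a log2 fold change of -0.44 and the anchor SdhC of -0.62, and in both some old libraries reached the young range.

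The most abundant nuclear genes of complexes I, III and IV behaved alike. ND-75, the large iron-sulfur subunit of complex I, had 2865 to 5366 normalized counts in old heads (median 4063) and 5261 to 7442 in young heads (median 6477). UQCR-C1, a core subunit of complex III, had 5428 to 9764 in old heads (median 6939) and 9626 to 13637 in young heads (median 11265). Both overlapped slightly between ages and fell by log2 fold changes of -0.65 and -0.69. COX6B, a nuclear subunit of cytochrome c oxidase, had 8263 to 14147 in old heads (median 10583) and 16176 to 25696 in young heads (median 20580), with no overlap and a log2 fold change of -0.89.

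The smallest fall of the 61 was that of ND-51, the flavin-binding subunit through which electrons from NADH enter complex I. It had 3524 to 4703 normalized counts in old heads (median 3805) and 4064 to 5359 in young heads (median 4380), which overlap. Its log2 fold change was -0.16 (SE 0.05, adjusted p = 0.00801), and the call was lost when libraries were scaled by their total reads or when the 6 libraries with reads on silent genes were left out.

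**Figure D2:**
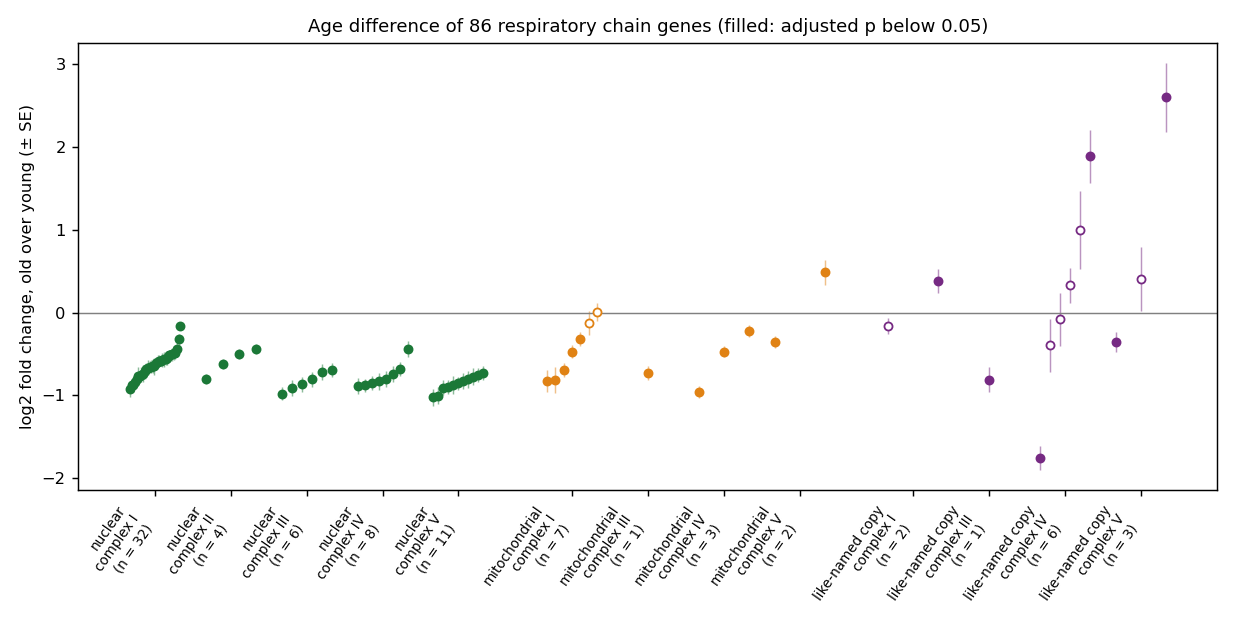
Log2 fold change, old over young, with its SE as a bar, of each of the 86 genes, grouped as nuclear subunit genes, mitochondrial genes and like-named copies of each complex, with filled points for genes called by limma. All 61 nuclear subunit genes lie below 0, between -1.02 and -0.16, and the mitochondrial genes and copies lie on both sides.

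The 13 mitochondrial genes did not move as one. The largest fall was in mt:CoIII (FBgn0013676, dm6 mitochondrial genome, 4736 to 5524, plus strand), one of the 3 mitochondrially encoded core subunits of cytochrome c oxidase. It had 35767 to 68675 normalized counts in old heads (median 55278) and 86907 to 123419 in young heads (median 94839), with no overlap and a log2 fold change of -0.96 (SE 0.07, adjusted p = 2.34e-10). Gene mt:CoI, which encodes the catalytic core of the same complex, had 86528 to 111927 in old heads (median 95981) and 97462 to 129032 in young heads (median 116461). It overlapped between ages and fell by a log2 fold change of -0.22 (SE 0.07, adjusted p = 0.00993), a call that was lost under both scalings by total reads (-0.16 and -0.14). Gene mt:CoII, which takes electrons from cytochrome c, had 4701 to 6666 in old heads (median 5598) and 6706 to 8756 in young heads (median 7567), a log2 fold change of -0.47 with no overlap. These were the 2 mitochondrial genes of 13 (15.4%) with every old library below every young library, against 3.53% of all tested genes.

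Genes of complex I on the mitochondrial genome gave a mixed picture. Gene mt:ND4 had 2839 to 4687 normalized counts in old heads (median 3167) and 4527 to 6972 in young heads (median 5757), a log2 fold change of -0.70. Gene mt:ND5 had 22125 to 34123 in old heads (median 24378) and 28029 to 45024 in young heads (median 36404), a log2 fold change of -0.47. Gene mt:ND1 had 32976 to 51415 in old heads (median 38104) and 35339 to 60578 in young heads (median 49190), a log2 fold change of -0.32. All 3 were called lower with overlapping ranges. The scarce mt:ND3 and mt:ND4L were also lower, with log2 fold changes of -0.83 and -0.82 and medians of 68.0 and 64.6 in old heads against 106 and 118 in young heads. The equally scarce mt:ND2 and mt:ND6 did not pass the test, with log2 fold changes of 0.00 (SE 0.11, adjusted p = 0.985) and -0.13 (SE 0.14, adjusted p = 0.473).

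In complex III, mt:Cyt-b, the subunit that carries both quinone sites, had 23917 to 47798 normalized counts in old heads (median 34587) and 44911 to 75778 in young heads (median 57417), a log2 fold change of -0.72. In complex V, mt:ATPase6, which forms part of the proton channel, had 4056 to 6650 in old heads (median 4975) and 5361 to 7629 in young heads (median 7031), a log2 fold change of -0.35. Its neighbour mt:ATPase8 was the one mitochondrial gene called higher, with 156 to 354 in old heads (median 225) and 110 to 364 in young heads (median 162), a log2 fold change of 0.48 (SE 0.15, adjusted p = 0.00794). The young range of mt:ATPase8 enclosed the old range. As said above, mt:ATPase8 and mt:ATPase6 overlap on one strand, so how reads were shared between them, and with it this difference in direction, is uncertain.

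**Figure D3:**
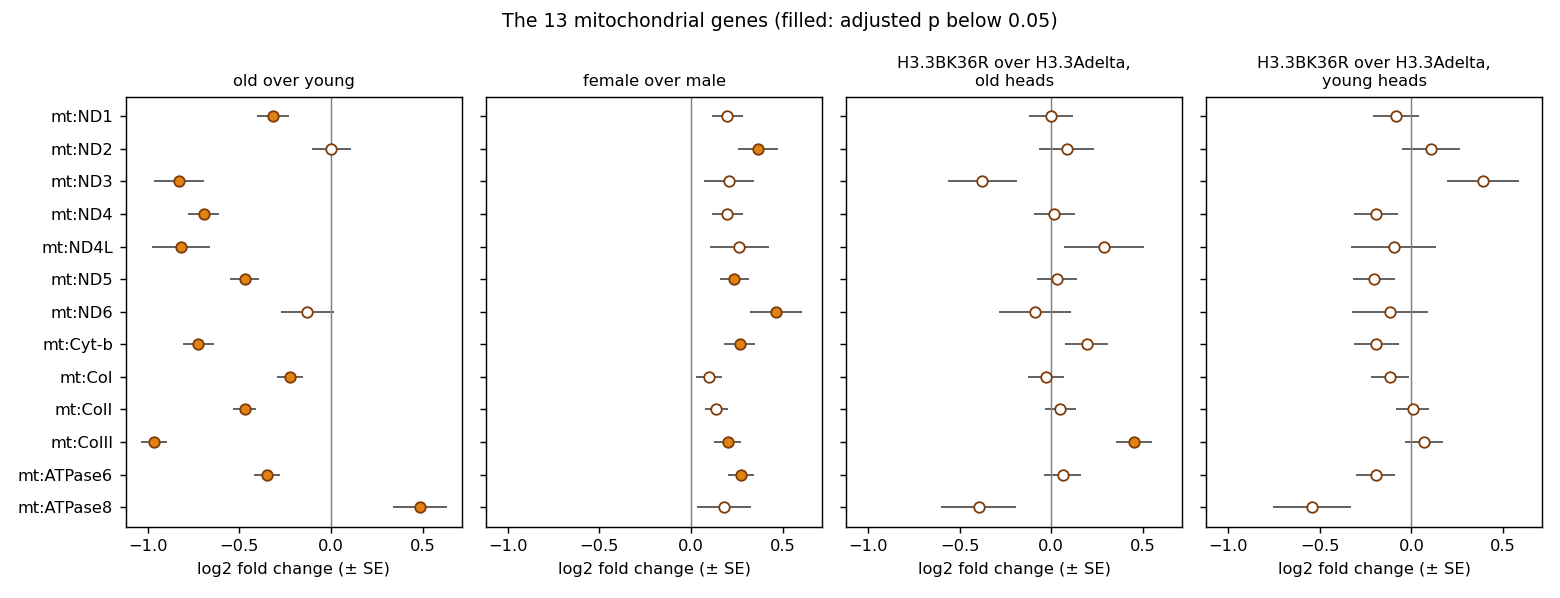
Log2 fold change of the 13 mitochondrial genes, with its SE as a bar, for old over young, female over male, and H3.3BK36R over H3.3Adelta in old and in young heads, with filled points for genes called by limma. With age 10 genes were lower and mt:ATPase8 higher, and by genotype mt:CoIII in old heads is the one filled point.

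The 12 like-named copies split in both directions. COX7AL2 (dm6 chromosome 2L, 2192525 to 2197912, minus strand) had 55.5 to 141 normalized counts in old heads (median 105) and 189 to 497 in young heads (median 335), with no overlap and a log2 fold change of -1.76 (SE 0.14, adjusted p = 1.1e-09). UQCR-11L had 79.0 to 156 in old heads (median 113) and 107 to 326 in young heads (median 200), a log2 fold change of -0.81. ATPsynCF6L was lower by a smaller amount, with a log2 fold change of -0.36 (SE 0.12, adjusted p = 0.0191).

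ATPsynbetaL (dm6 chromosome 3L, 16097834 to 16100088, plus strand) was higher in old heads, at 5.34 to 39.2 normalized counts (median 12.2) against 0 to 8.58 in young heads (median 0.90). Its log2 fold change was 2.60 (SE 0.42, adjusted p = 1.5e-05) with a pseudocount of 1, 3.04 with 0.5 and 1.47 with 5. COX7AL (dm6 chromosome 3R, 8343669 to 8344310, plus strand) had 3.68 to 25.2 in old heads (median 16.9) and 0 to 8.47 in young heads (median 2.52), a log2 fold change of 1.89 (SE 0.32, adjusted p = 2.96e-05), or 2.11 and 1.18 with pseudocounts of 0.5 and 5. Both genes reached the minimum of 10 in old libraries alone, 7 libraries for ATPsynbetaL and 9 for COX7AL, so they had to be high in old heads to be tested. ND-51L2 had 26.2 to 52.6 in old heads (median 43.6) and 15.5 to 44.1 in young heads (median 34.8), a log2 fold change of 0.38 (SE 0.14, adjusted p = 0.0288). That call was lost with all 24 libraries, where the log2 fold change was 0.27 (adjusted p = 0.207), and without any 1 of old male H3.3BK36R replicate 2, young female H3.3Adelta replicate 3, young female H3.3BK36R replicate 3 and young male H3.3BK36R replicate 3 (adjusted p = 0.0505, 0.0502, 0.0589 and 0.0699).

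**Figure D4:**
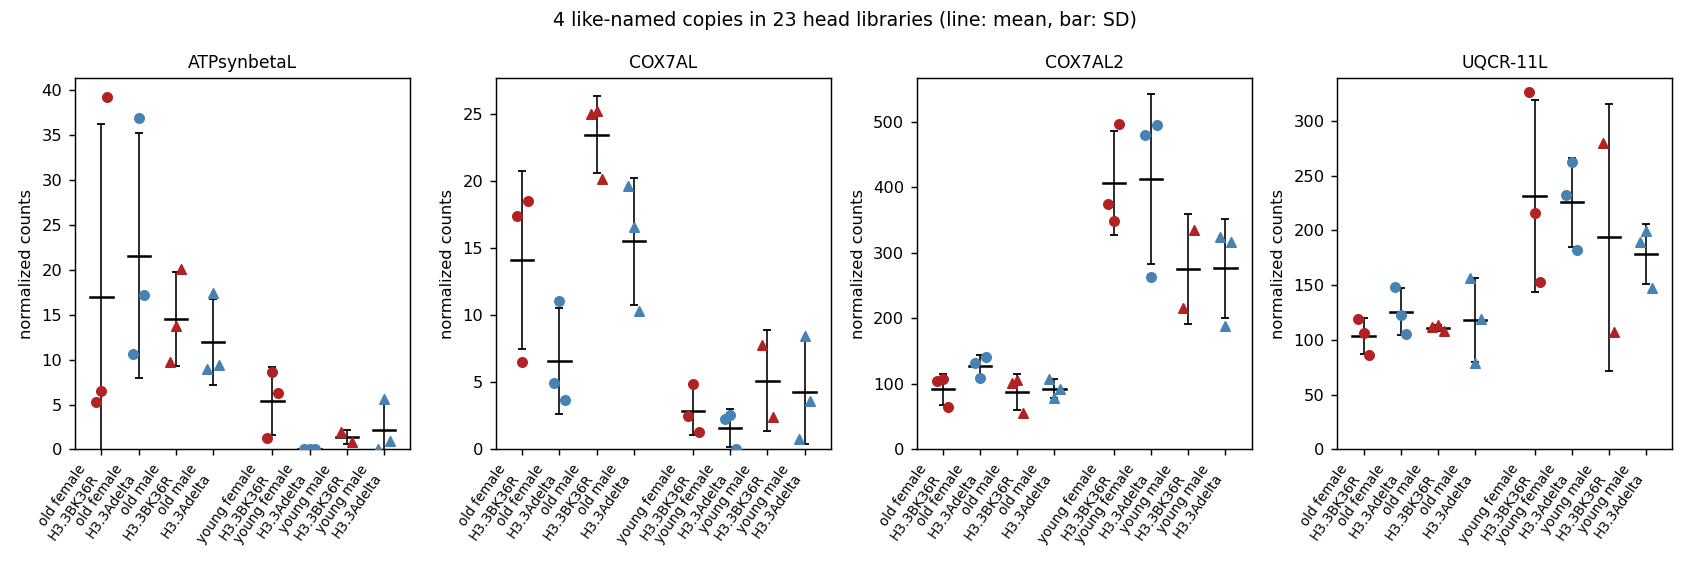
Normalized counts of 4 like-named copies, with 1 point per library (red for H3.3BK36R and blue for H3.3Adelta, circles for females and triangles for males), a line for the group mean and a bar for its SD, which is cut off at 0. COX7AL2 was lower in every old library than in every young library, and ATPsynbetaL reached at most 39.2 in old heads and 8.58 in young heads.

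The fall of the nuclear genes was present in each sex and genotype. In females 58 of 61 were lower in old heads than in young heads (median log2 fold change -0.61, 47.3% of all genes called, 22.8% lower), in males 61 of 61 (median -0.86, 35.9% called, 17.9% lower), in H3.3BK36R heads 61 of 61 (median -0.78, 40.4% called, 19.9% lower) and in H3.3Adelta heads 60 of 61 (median -0.68, 41.9% called, 20.4% lower). The exceptions were ND-51, ND-B16.6 and COX7A in females, at -0.13, -0.24 and -0.17, and ND-51 in H3.3Adelta heads, at -0.06. ND-B16.6 and COX7A are named here because they are the exceptions. Of the 13 mitochondrial genes, 9 were lower and 1 higher in females, 8 lower in males, 7 lower and 1 higher in H3.3BK36R heads and 9 lower in H3.3Adelta heads.

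Whether sex changed the age difference was tested as an interaction. It was called for 0 of 86 genes by limma, against 0.728% of all tested genes, while 9 nuclear genes and 0 mitochondrial genes had an unadjusted p under 0.05. The interaction was positive, that is the age difference was less negative in females than in males, in 58 of the 61 nuclear subunit genes with a median of 0.27, against a median of 0.02 over all tested genes. The lowest adjusted p was 0.0969, for COX7A. This interaction was fitted in the main setting alone, with none of the alternatives. Its young male H3.3BK36R group held 2 libraries, whose sums over the 61 nuclear subunit genes were 344991 and 477161. The library at 477161, replicate 3, had a neuron marker sum of 101418, against 208344 to 255165 in the other young libraries. It also had Yp1 at 56504 and reads on 50.7% of silent genes. The part of that library in the interaction was not tested.

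Other genes of mitochondrial metabolism were set beside these, to be read against the 25.4% of all tested genes called lower and 28.4% called higher with age. Of 13 respiratory chain and cytochrome c genes that carry other symbols, 8 were lower in old heads than in young heads and none higher, with Cyt-c-p, the main cytochrome c, at a log2 fold change of -1.13 and sun, the epsilon subunit of ATP synthase, at -1.07. All 3 tested genes for passage of ADP and ATP, of 4 symbols listed, were lower. They were the ADP/ATP carriers sesB (-1.33) and Ant2 (-0.53) and the outer membrane channel porin (-0.51). In the citrate cycle 10 of 16 tested genes, of 17 symbols listed, were lower. They were led by the citrate synthase gene kdn (-1.22) and by Idh3a (-1.14), a subunit of isocitrate dehydrogenase. In glycolysis 10 of 12 tested genes, of 15 symbols listed, were lower, led by Gapdh1 (-1.23) and Pglym78 (-0.89). The lactate dehydrogenase gene Ldh was higher (0.87).

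Lists of genes that maintain, express and regulate mitochondria had called members in either direction, to be read against the same background of 25.4% lower and 28.4% higher. Of 15 symbols listed for copying and transcribing the mitochondrial genome, 11 were tested. Of these 11, 5 were higher in old heads than in young heads and none lower. They were led by mtDNA-helicase (1.23) and PolG1 (0.78), the catalytic subunit of the mitochondrial DNA polymerase. Of 72 mitochondrial ribosomal protein genes, 22 were lower and 6 higher with a median of -0.11, and the extremes were mRpS9 (-0.67), mRpL24 (-0.57), mRpS18B (0.37) and mRpL21 (0.22). Of 21 symbols listed for assembly factors, only 8 were found and tested. Of these 8, 3 were lower and 2 higher, with Cox10 at -0.46, Bcs1 at -0.37, Surf1 at 0.41 and Scox at 0.22. Of 4 regulators, 2 were higher, namely srl, the fly member of the PGC-1 coactivator family (1.48), and Ets97D (0.53). The mitochondrial ribosomal RNAs, which ribosomal RNA depletion acts on, were also lower, by log2 fold changes of -1.15 for mt:lrRNA and -1.23 for mt:srRNA.

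Markers of cell types moved with age as well, to be read against the 25.4% of all tested genes called lower and 28.4% called higher. Of 10 muscle markers, 9 were lower in old heads than in young heads, with a median log2 fold change of -1.54 and summed levels of 103049 to 171174 in old heads and 149956 to 426988 in young heads. Of 6 neuron markers 4 were lower, with sums of 123927 to 191971 in old heads and 101418 to 255165 in young heads. The lowest young sum was that of young male H3.3BK36R replicate 3, and the other young libraries had 208344 to 255165, above every old library. Of 5 glia markers 4 were lower, with sums of 36755 to 52599 in old heads and 41201 to 85313 in young heads. Of 10 photoreceptor markers 4 were higher and 4 lower. The part of these markers in the age result was not tested.

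For sex, 11 of the 73 nuclear genes were higher in females than in males and 1 lower, of which 10 were among the 61 subunit genes, and 6 of 13 mitochondrial genes were higher, against 28.9% of all tested genes called for sex (14.1% higher, 14.8% lower). All 61 nuclear subunit genes had a positive log2 fold change, with a median of 0.14, as had all 13 mitochondrial genes, with a median of 0.21. For all 86 genes the female and male ranges overlapped. Each range held both ages, and the share of all tested genes with such overlap was not counted, so no result is read from this. These signs depend on the scaling. When libraries were scaled by their total reads outside the mitochondrial genome or on all genes, the median of all tested genes moved to -0.21 and 19 or 18 of the 61 and 10 or 8 of the 13 were positive. The calls were then 0 higher and 3 or 5 lower for nuclear genes and none for mitochondrial genes. The nuclear subunit genes stood 0.15 and the mitochondrial genes 0.22 above the median of all genes under both of these scalings. Scaling a library shifts all its genes by nearly the same amount, so this distance could hardly change and is no test of the sex difference. The count of nuclear calls by sex also moved with single libraries. It was 27 without young male H3.3BK36R replicate 3 and 20 without young female H3.3BK36R replicate 2. It was 7 without any 1 of old female H3.3Adelta replicates 1 and 3, young female H3.3Adelta replicate 3, young or old male H3.3Adelta replicate 2, young male H3.3BK36R replicate 1, old female H3.3BK36R replicate 2 and young female H3.3BK36R replicate 3. It was 24 without the 3 male libraries with high Yp1 and 35 without the 6 libraries with reads on silent genes. It was 21 with the replicate number as a block and 27 with weights for single libraries.

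The largest differences by sex among the nuclear genes called were in ATPsyndelta, COX7AL2 and COX7AL. ATPsyndelta, a central stalk subunit, had 8175 to 19737 normalized counts in females (median 11671) and 5499 to 17090 in males (median 6674), a log2 fold change of 0.38 (SE 0.11, adjusted p = 0.00949). COX7AL2 had 64.6 to 497 in females (median 202) and 55.5 to 335 in males (median 107), a log2 fold change of 0.41 (SE 0.14, adjusted p = 0.0343). COX7AL had 0 to 18.5 in females (median 4.29) and 0.76 to 25.2 in males (median 10.3), and was the gene lower in females, with a log2 fold change of -0.89 (SE 0.32, adjusted p = 0.0387). Each range holds both ages, and all 3 overlapped. ATPsynbeta was higher in females by 0.33 (adjusted p = 0.00435).

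Among the mitochondrial genes, the calls higher in females were mt:ND6 (log2 fold change 0.46, adjusted p = 0.0167), mt:ND2 (0.37, adjusted p = 0.0127), mt:ATPase6 (0.27, adjusted p = 0.00649), mt:Cyt-b (0.27, adjusted p = 0.0204), mt:ND5 (0.24, adjusted p = 0.0269) and mt:CoIII (0.20, adjusted p = 0.04). Gene mt:ATPase6 had 4179 to 7629 normalized counts in females (median 6549.7) and 4056 to 7349 in males (median 5029). Muscle markers moved the same way, with 7 of 10 higher in females, against 14.1% of all tested genes. Their median was 0.45, with sums of 138786 to 426988 in females and 103049 to 288679 in males. Their part in the result was not tested.

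By age, 19 of 61 nuclear subunit genes were higher in females than in males among old heads (30.3% of all genes called, 15.1% higher) and 0 of 61 among young heads (8.19% called, 4.93% higher), with 3 and 1 mitochondrial genes. This is not a tested difference between the ages, for which the interaction is given above. In old heads ATPsyndelta had 8175 to 11701 normalized counts in females and 5499 to 6674 in males, without overlap, and a log2 fold change of 0.64 (SE 0.13, adjusted p = 0.00121).

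Genotype left nearly all of the set uncalled. In young heads, 1 of 73 nuclear genes (SdhC) and 0 of 13 mitochondrial genes were called between H3.3BK36R and H3.3Adelta, against 9.21% of all tested genes (4.80% higher), and 4 nuclear genes and 1 mitochondrial gene had an unadjusted p under 0.05 in limma. For the mitochondrial genes, edgeR and DESeq2 also called 0. In old heads, 1 nuclear gene (UQCR-11) and 1 mitochondrial gene (mt:CoIII) were called, against 18.6% (10.0% higher). The median log2 fold change of the 61 nuclear subunit genes was 0.03 in young heads and -0.07 in old heads. The count of nuclear calls in old heads was 5 without young male H3.3BK36R replicate 3, 4 without old female H3.3BK36R replicate 1, 3 without old male H3.3Adelta replicate 1, and 2 without old male H3.3BK36R replicate 1 or old female H3.3Adelta replicate 2. It was 3 without the 3 male libraries with high Yp1, 4 with upper-quartile scaling and 7 with weights for single libraries, and apart from UQCR-11 the genes called in these 3 fits were lower in H3.3BK36R heads. SdhA was not called in old heads (log2 fold change -0.23, adjusted p = 0.055). It was called lower with DESeq2 (adjusted p = 0.0353), with 8 groups (adjusted p = 0.0355) and with a minimum of 50 normalized counts (adjusted p = 0.0466). It was also called lower in old females taken alone (log2 fold change -0.38, adjusted p = 0.0271), where the share of all tested genes called is not given here. The interaction of sex and genotype for SdhA in old heads was -0.30 (adjusted p = 0.957 in limma), so no difference between the sexes was called.

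In old heads mt:CoIII had 61893, 68675 and 57713 normalized counts in H3.3BK36R females and 55041, 42516 and 45504 in H3.3Adelta females. It had 55516, 57415 and 55661 in old H3.3BK36R males and 45213, 35767 and 38447 in old H3.3Adelta males. Every old H3.3BK36R library lay above every old H3.3Adelta library, a separation in that direction found in 3.98% of all tested genes, although the closest pair differed only slightly (55516 against 55041). It was the one gene of the 86 with such a separation in old heads, since none lay wholly below (2.89% of all tested genes), and in young heads none lay wholly above (2.79%) or below (2.56%). The log2 fold change was 0.45 (SE 0.10, adjusted p = 0.00225), or 0.40 in females (adjusted p = 0.0812) and 0.50 in males (adjusted p = 0.0335), and 0.42 to 0.50 with any 1 library left out.

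In young heads mt:CoIII was not called between the genotypes, with 87337, 93079, 102269, 111419 and 123419 in H3.3BK36R heads, and 86907 to 114269 (median 93285.5, n = 6) in H3.3Adelta heads. These ranges overlapped and the log2 fold change was 0.07 (SE 0.10, adjusted p = 0.731). The fall of mt:CoIII with age had a log2 fold change of -0.77 in H3.3BK36R heads and -1.16 in H3.3Adelta heads. The interaction of age and genotype was 0.38 (SE 0.14, adjusted p = 0.206), so limma called no difference between these falls, while DESeq2 gave 0.37 with an adjusted p = 0.0438.

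The ratio of mt:CoIII to mt:CoI, which was looked at after the values were seen and is given as a description, compares transcripts of the same mitochondrial genome within a library. It was 0.54 to 0.66 in old H3.3BK36R heads (median 0.63) and 0.39 to 0.53 in old H3.3Adelta heads (median 0.43). In young heads it was 0.90 to 0.96 for H3.3BK36R (median 0.94) and 0.76 to 0.91 for H3.3Adelta (median 0.81). Over both genotypes the old libraries lay between 0.39 and 0.66 and the young libraries between 0.76 and 0.96.

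**Figure D5:**
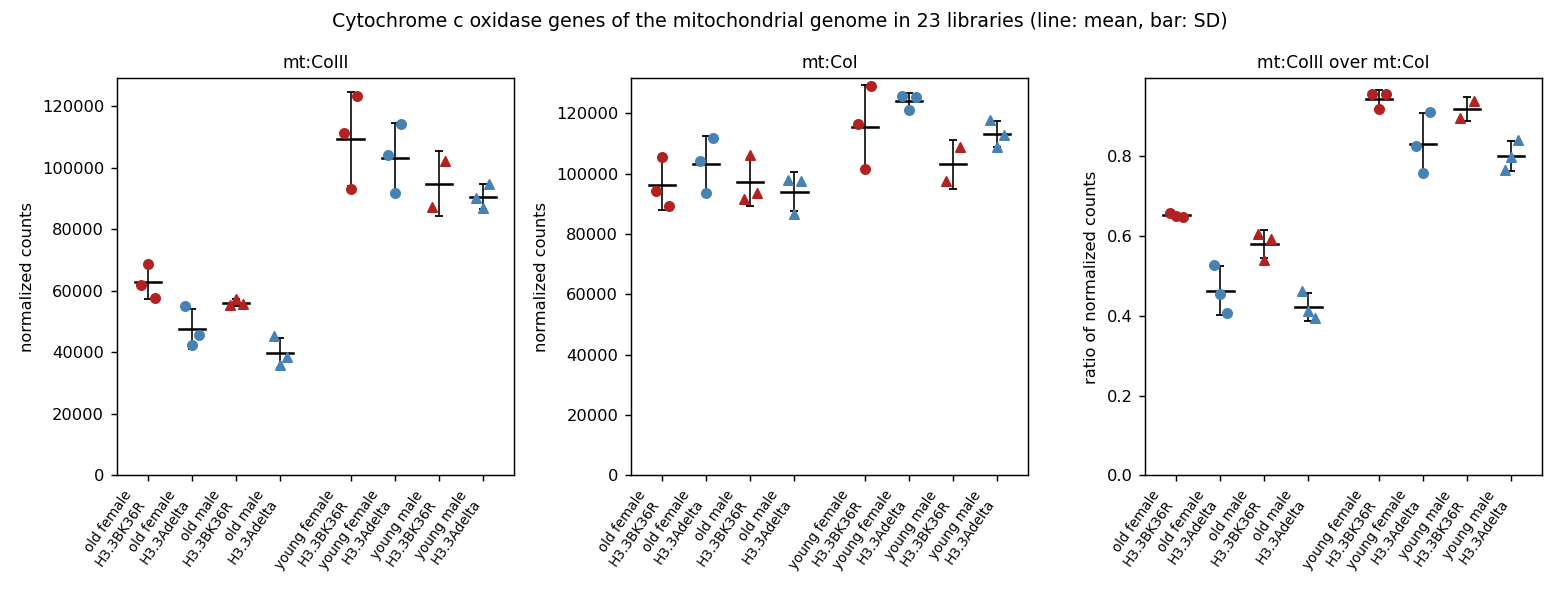
Normalized counts of mt:CoIII and mt:CoI, and their ratio, with 1 point per library (red for H3.3BK36R and blue for H3.3Adelta, circles for females and triangles for males), a line for the group mean and a bar for its SD. In old heads all 6 H3.3BK36R libraries lay above all 6 H3.3Adelta libraries for mt:CoIII and for the ratio, with mt:CoIII counts of 55516 to 68675 against 35767 to 55041, whereas mt:CoI overlapped.

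UQCR-11 (FBgn0260008, dm6 chromosome 3L, 25120709 to 25126171, plus strand), a small subunit of complex III, had 1173 to 1578 normalized counts in old H3.3BK36R heads (median 1301) and 841 to 1248 in old H3.3Adelta heads (median 952). The ranges overlapped, and the log2 fold change was 0.43 (SE 0.12, adjusted p = 0.0133). In young heads it was 0.31 (SE 0.12, adjusted p = 0.126). The call in old heads held with each single library left out, at 0.38 to 0.48.

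SdhC (FBgn0037873, dm6 chromosome 3R, 11208887 to 11209849, minus strand) had 2234, 1775, 2182, 2645 and 2363 normalized counts in young H3.3BK36R heads and 1505 to 2158 (median 1785) in young H3.3Adelta heads, which overlap. The log2 fold change was 0.28 (SE 0.09, adjusted p = 0.0378). The call was lost without any 1 of young female H3.3Adelta replicates 1 and 2 (adjusted p = 0.0515 and 0.0947), young male H3.3Adelta replicate 2 (0.0801), young female H3.3BK36R replicate 3 (0.0969) and young male H3.3BK36R replicate 3 (0.115). It was also lost with edgeR (adjusted p = 0.0532) and with weights for single libraries (adjusted p = 0.156), without the 3 male libraries with high Yp1 (adjusted p = 0.149) and without the 6 libraries with reads on silent genes (adjusted p = 0.231). In the last of these fits, and without young male H3.3Adelta replicate 2, the nuclear gene called in young heads was ATPsynbetaL, higher in H3.3BK36R heads, with log2 fold changes of 1.70 and 1.76 (adjusted p = 0.0411 and 0.0467) from 0 to 8.58 normalized counts in young heads. In old heads SdhC had a log2 fold change of 0.13 (SE 0.08, adjusted p = 0.29).

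The age by genotype interaction was called for 0 of 86 genes by limma, against 2.22% of all tested genes. Of these, 3 mitochondrial and 0 nuclear genes had an unadjusted p under 0.05, edgeR called 0, and DESeq2 called 1, which was mt:CoIII. The interaction of sex and genotype was called for 0 of 86 genes in old heads and in young heads, where 1 nuclear and 0 mitochondrial genes had an unadjusted p under 0.05 at each age, against 0.0480% and 0% of all tested genes.

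Markers that differed by genotype in old heads stand beside these values. Counts called here are to be read against the 18.6% of all tested genes called for genotype in old heads (10.0% higher). Of 4 flight muscle markers 2 were higher in H3.3BK36R than in H3.3Adelta, with sums of 1789 to 3649 in old H3.3BK36R heads and 1173 to 1914 in old H3.3Adelta heads. The list was mixed. TpnC4 had 20.8 to 42.1 in old H3.3BK36R heads and 5.51 to 16.3 in old H3.3Adelta heads, whereas Act88F had 36.0 to 94.8 and 84.7 to 111. Of 10 photoreceptor markers 4 were lower and 1 higher, with sums of 896829 to 1163630 in old H3.3BK36R heads and 1205580 to 1445720 in old H3.3Adelta heads, and 5 of 10 ovary markers were lower. None of 10 muscle markers was called. Their part in the genotype results was not tested. Of the lists of mitochondrial metabolism, the ribosomal protein genes had 4 higher and 2 lower of 72, a smaller share than among all tested genes. The largest were mRpL33 (0.68) and mRpS31 (0.45), with mRpS30 (-0.32) and mRpS22 (-0.30) lower. The other lists had no call.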

How the data were processed

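The values analysed were one table of normalized signal per gene and library, deposited by the authors, who aligned 100 nt paired-end reads to dm6 with STAR 2.7.7a, counted them with featureCounts (Subread 2.0.3) and divided them by DESeq2 1.34.0 size factors. The annotation release is not given in the sources used here. The labels mark the table as forStrand, and genes covered by exons of the opposite strand alone kept their reads. Every value was a whole multiple of one step per library within 0.001, so whole reads were recovered for 100% of values. Depth was 21263006 to 42763126 reads on genes, and no column lacked a sample.

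Members and lists were chosen with earlier results of these data known. Genes with at least 10 normalized counts in 3 of 23 libraries were fitted with limma 3.58.1 (R 4.3.3) on log2 of the value plus a pseudocount of 1, with trended variance, 4 groups of age and genotype plus sex, and Benjamini-Hochberg adjustment over 12493 genes. Contrasts within a sex and interactions with sex used 8 groups. Replicate pairs of a group differed beyond sampling noise (mean chi-square per gene at least 8.58, and highest, at 232, for the young male H3.3BK36R pair). The fits were tested on simulated data. Alternatives were pseudocounts of 0.5 and 5, other filters and scalings, library weights, a replicate block, all 24 libraries, each library left out, and edgeR 4.0.16 and DESeq2 1.42.0 on the recovered reads, with which edgeR called 6631 genes for age and limma 6721.

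Replicate numbers are shared between groups, but same-numbered libraries did not deviate together in every pair of groups, so the main fit used no pairing. A shared effect of the number need not show in every pair. Genes named were all mitochondrial genes, the Sdh genes, the most abundant nuclear gene of each complex, the like-named copies, the 3 largest called nuclear changes in each direction per contrast and up to 4 per metabolic list. ND-B16.6, COX7A and the ratio of mt:CoIII to mt:CoI were chosen after values were seen. Tables were handled with Python 3.11.15, numpy 2.4.6 and pandas 2.3.3, and plots were drawn with matplotlib 3.10.9.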

Additional observations from a re-analysis of the deposited data

Results flagged for a closer look

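Within the libraries of 1 age and genotype, which hold both sexes, a single library stood apart in 9 of 192 groups tested over 48 values. Chance gives about 5%, so 9 of 192 is no more than chance gives. The cases are listed as a description. The mitochondrial cases were both in young female H3.3Adelta replicate 3, with mt:Cyt-b at 75778 normalized counts (55190 to 61928 in the other libraries of young H3.3Adelta heads) and mt:ND5 at 45024 (35184 to 38760). SdhC was at 1510 in old female H3.3Adelta replicate 3 (1138 to 1248 in the others).

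The other cases were like-named copies at low counts. ATPsynbetaL was at 36.9 in old female H3.3Adelta replicate 2 (8.99 to 17.4 in the others), a library with reads on 83.9% of silent genes, and at 5.65 in young male H3.3Adelta replicate 2 (0 to 0.90), with 72.9%. In young female H3.3BK36R replicate 2, with 80.6%, COX4L was at 29.4 (0 to 6.51) and COX6AL at 12.3 (5.83 to 7.59). ATPsynepsilonL was at 8.96 in young male H3.3BK36R replicate 3 (2.52 to 3.68), with 50.7%. ND-51L2 was at 26.2 in old male H3.3Adelta replicate 1, below the others (43.2 to 52.6). The part of the reads on silent genes in these values was not tested.

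In young male H3.3BK36R replicate 2, the library left out, the 11 genes of the set under the minimum summed to 1477 normalized counts, against 2.84 to 71.1 (median 11.3) in the 23 libraries used. Of these 11, 10 had 44.2 to 289 in that library and ND-MNLL, whose 720 exon bases are all covered by CG45089 on the same strand, had 0 in every library. The 12 like-named copies summed to 2920 there and to at most 900 elsewhere.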

How the results depend on the processing

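Depth limits the like-named copies most, since several had under 10 normalized counts in most libraries, and their fold changes depend on the pseudocount. The mitochondrial and nuclear subunit genes had far higher counts, except mt:ND2, mt:ND3, mt:ND4L, mt:ND6 and mt:ATPase8. The 6 libraries with reads on silent genes and the 3 male libraries with high Yp1 were left out as alternatives chosen after seeing the data.

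The count of nuclear genes called for age was 67, and 66 to 68 when single libraries were dropped. That of mitochondrial genes was 11 in each such fit. The count of mitochondrial genes called between genotypes in old heads was 1 in each such fit. None of these counts moved by over 1.5 times under any alternative run, and mt:CoIII and UQCR-11 stayed called in old heads in every fit.

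For sex, the nuclear count of 12 became 3 when scaled by total reads outside the mitochondrial genome, 5 by total reads on all genes, 27 with library weights, 21 with the replicate block, 24 without the 3 male libraries with high Yp1 and 35 without the 6 libraries with reads on silent genes. Dropping single libraries gave 7 to 27. The mitochondrial count of 6 became 0 under both scalings by total reads. Dropping single libraries gave 4 to 7. SdhA and SdhD, not called for sex, were called lower in females under these scalings, with log2 fold changes of -0.19 and -0.17 outside the mitochondrial genome and -0.19 and -0.17 on all genes, where the median of all genes also moved, to -0.21.

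For genotype in young heads, the nuclear count of 1 became 2 under both scalings by total reads and 0 with edgeR, with library weights and without the 3 male libraries with high Yp1. Dropping single libraries gave 0 to 1. In old heads it became 2 with a minimum of 50 normalized counts, 4 with upper-quartile scaling, 2 with DESeq2, 7 with library weights, 2 with 8 groups and 3 without the 3 male libraries with high Yp1. Dropping single libraries gave 1 to 5. The mitochondrial count for the age by genotype interaction became 1 with DESeq2. For each of these counts the cause was not tested.

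Same-numbered libraries of different groups had a mean correlation of deviations of 0.101 over 77 pairs, of which 35 were over 0.1 and the lowest was -0.346, against a mean of -0.0492 and 35 of 154 over 0.1 for libraries with different numbers. Since not every pair was over 0.1, the main fit did not take the numbers to pair the samples. That rule is strict, because a shared effect of the number need not show in every pair. As a hint from the data, 15 of 23 libraries correlated best with their own number. The replicate block moved the nuclear count for sex to 21 and no other count by over 1.5 times.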
